A study of Mus musculus with 6 samples.

Results

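The clock gene list held Per1, Per2, Per3, Cry1, Cry2, Arntl, Clock, Nr1d1, Nr1d2 and Dbp. Its genes were found by symbol in a table of 14490 genes measured by mRNA-seq in splenic natural killer (NK) cells, and all 10 were present. The spleens came from C57BL/6 mice of 2 genotypes, with 3 samples each, and the NK cells were isolated by flow sorting. WT mice were Mettl3fl/fl, with both Mettl3 alleles flanked by loxP sites and no Cre. cKO mice were Ncr1Cre-Mettl3fl/fl, in which Cre is driven by Ncr1, the gene of the NK cell receptor NKp46, so that Mettl3 is deleted in cells that have expressed Ncr1. METTL3 is the catalytic subunit of the enzyme complex that writes N6-methyladenosine (m6A) on mRNA. Only the cKO mice carried Cre, so an effect of the Cre allele cannot be told apart from that of the deletion. The study used mice aged between 6 and 10 weeks, kept in a cycle of 12 h light and dark. The hour at which the spleens were taken is not given in the sources used here, and levels of clock transcripts depend on it. Nothing in the labels says whether a sample was 1 animal or a pool. The limma p-values below set each difference against the spread between these samples. In that fit the spread of each gene is drawn toward that of other genes of like level.

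The circadian clock is a transcription and translation feedback loop that runs in nearly every cell, lymphocytes included. BMAL1 (encoded by Arntl) and CLOCK bind as a pair to E-box sites and activate the Per and Cry genes, whose proteins return to the nucleus and repress that pair. The same pair activates Nr1d1 and Nr1d2, which encode the repressors REV-ERBα and REV-ERBβ. These bind elements in Arntl that the ROR activators also use, and so form a second loop. Dbp encodes an activator that binds D-box sites and carries the rhythm to output genes, against the repressor NFIL3, which is also required for NK cell development. Per1 can in addition be induced within minutes to hours by cyclic AMP signalling through CREB and by glucocorticoids.

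Promoter windows from RefSeq (GRCm38.p6, 250 bases before to 50 bases after the transcript start) were found for 9 of the 10 genes. Per2 had no entry. On both strands they were searched for CACGTG (E-box), CACGTT (a common E-box variant, which reads AACGTG on the other strand), TTANGTA (part of the D-box), TNGGTCA (part of the ROR and REV-ERB element) and TGACG (the half-site bound by CREB). The 8 matches below, each in a stretch of 30 bases, show E-box, D-box and CREB letters in genes described next, with the match in capitals and every sequence written 5′ to 3′ on the strand of its gene.
Per1, E-box, 166 bases before the first start, chr11:69098771-69098800, plus strand: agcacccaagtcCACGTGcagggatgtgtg
Per1, CREB half-site, 132 bases before the second start, chr11:69100007-69100036, plus strand: tgagctcagcggcTGACGtcggtttccctg
Cry1, E-box, 60 bases before the start, chr10:85185097-85185126, minus strand: ggtgccggtggtCACGTGgggtgcatgccg
Cry1, E-box variant, 79 bases before the start, chr10:85185116-85185145, minus strand: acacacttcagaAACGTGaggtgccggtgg
Cry2, E-box variant, 166 bases before the start, chr2:92434218-92434247, minus strand: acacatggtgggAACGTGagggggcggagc
Nr1d1, E-box variant, 28 bases before the start, chr11:98775388-98775417, minus strand: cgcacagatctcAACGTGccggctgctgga
Per3, D-box part, 205 bases before the start, chr4:151044853-151044882, minus strand: ccgacccgcgcgTTATGTAaggtactcggg
Per3, D-box part, 158 bases before the start, chr4:151044806-151044835, minus strand: acccgcccgcggTTATGTAacccccgccgt

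Among all 27025 genes with a window, 8.09% held the E-box letters, 5.44% the variant, 7.80% the D-box part, 12.4% the REV-ERB part and 23.0% the CREB half-site. The E-box letters stood in the windows of Per1 and Cry1 alone among the 9 genes, and the windows of Clock, Nr1d2 and Dbp held none of the letters searched. Other matches are not printed, among them CREB half-sites in the windows of Cry1 and Cry2 and another in Per1. Also not printed are matches of the REV-ERB part, 3 in Arntl, 1 in Cry2 and 1 in Per3. A match of these letters is a description of the sequence and does not show a bound site, and sites outside the windows were not searched.

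Deposited values are counts per gene divided by the size factor of the sample, called normalized counts here. Every value was a whole multiple of a single step within its sample, to within 0.01 of a step, which gives between 55965515 and 71464042 reads on the listed genes per sample. For the comparison of cKO with WT, log2(normalized count + 1) was fitted by limma over all genes, and a gene was called at a Benjamini-Hochberg adjusted p under 0.05. Fold changes are on that log2 scale. As a check of the labels, Mettl3 had 1303, 1258 and 1192 normalized counts in WT and 297, 299 and 405 in cKO, so that signal remained in every cKO sample, and 933 of its exon bases are shared with Tox4 on the opposite strand. Of all genes, 36.6% were called, 17.8% as higher and 18.8% as lower in cKO. Of the called genes 48.5% were higher, and 63.4% were with samples scaled to equal totals.

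Of the 10 clock genes, 6 were called, 5 lower and 1 higher in cKO, beside 36.6% of all genes called. Per2, Nr1d2, Cry2, Per1 and Clock fell and Cry1 rose, while Arntl, Per3, Nr1d1 and Dbp were not called. The median log2 fold change of the list was −0.14, against 0.0014 over all genes. In 6 of the 10 genes the 3 WT and the 3 cKO values did not overlap, where 45.7% of all genes showed no overlap. For each of these 6 genes an exact permutation test (two-sided, 20 ways to assign the genotypes) gave p = 0.1, the smallest it can give. Values without overlap always give this p, so the test adds nothing to the lack of overlap. In bulk RNA, fewer cells of a type and less RNA per cell cannot be told apart.

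**Figure D1:**
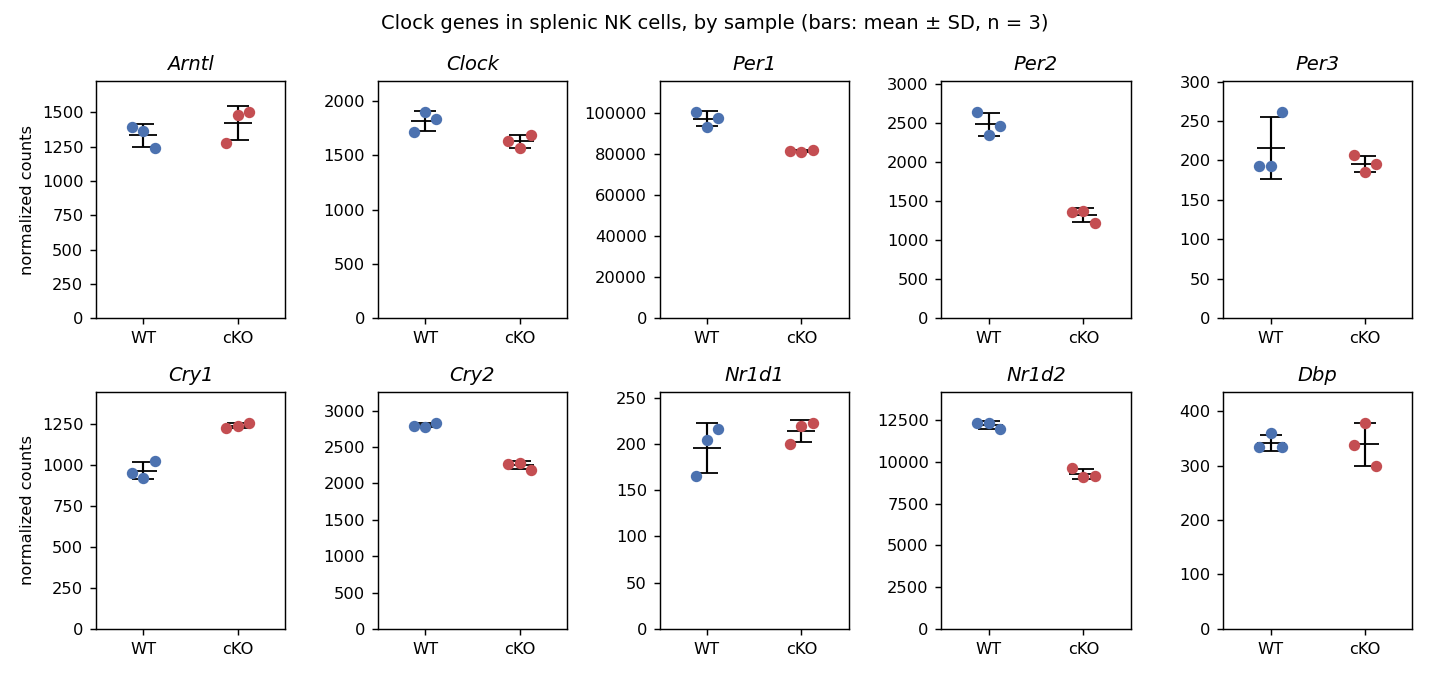
Normalized counts of the 10 clock genes (y axis, from 0, a separate scale for each gene) in the 3 WT (blue) and 3 cKO (red) samples, with the mean and SD as black bars. Per2 stood between 2351 and 2644 in WT and between 1214 and 1380 in cKO, while the points of Arntl, Per3, Nr1d1 and Dbp overlap between genotypes.

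The levels of the 10 transcripts spanned nearly 3 orders of magnitude, and Per1 stood far above the rest. Per kb of annotated exon, Per1 had 17260 normalized counts in WT, above 98.7% of the genes with a known length, and it ranked 66 of all genes by its normalized counts. Nr1d2 was second, with 2259 normalized counts per kb in WT. The level of Per1 was 7.64 times that of Nr1d2, and the level of Nr1d2 was 5.10 times that of the next gene, Cry2. By this length, Cry2 (443 per kb) and Per2 (424 per kb) overlapped in WT, and they were the only neighbours in the order that did. Below them came Cry1 with 288, Arntl with 177, Clock with 132, Dbp with 114, Nr1d1 with 63.6 and Per3 with 22.5 normalized counts per kb. In cKO the order changed in the middle, where Cry1 moved up to the third place, Cry2 was the fourth and Per2 the fifth. The other places were the same. These places rest on all exon bases annotated for each gene. By the longest annotated transcript instead, Cry2 and Per2 would lie apart in WT, and Arntl would average above Cry1. In cKO, Cry1 would then stay below Cry2, and Per2 would fall below Arntl. Per1 and Nr1d2 would still come first and second.

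**Figure D2:**
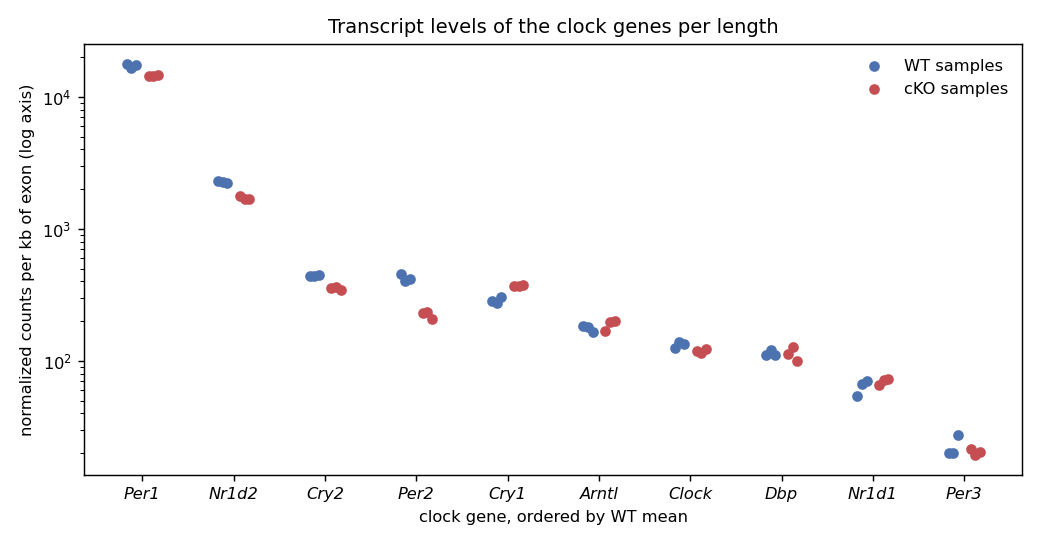
Normalized counts per kb of annotated exon (y axis, log scale) for each clock gene in 3 WT (blue) and 3 cKO (red) samples, ordered by the WT mean. The samples of Per1 lie between 14382 and 17864 and Per3 averages 22.5 in WT. By this length Cry1 passes Cry2 and Per2 in cKO, but by the longest annotated transcript it would not pass Cry2.

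Arntl and Clock form the activating arm. Arntl (chromosome 7, 113207465 to 113314126) had 1392, 1368 and 1238 normalized counts in WT and 1277, 1482 and 1503 in cKO. The values of the genotypes overlapped. The log2 fold change was 0.090 with a 95% confidence interval from −0.047 to 0.23 and a limma adjusted p of 0.314, so a change within that interval was not resolved by these samples. Clock (chromosome 5, 76209868 to 76304792) encodes the partner of BMAL1. It had 1717, 1900 and 1838 normalized counts in WT and 1631, 1566 and 1691 in cKO. All cKO values were below all WT values, though by little. Clock fell by 0.16 on the log2 scale (standard error 0.0552, limma adjusted p = 0.0261), a change of −10.4%. This call was lost without WT replicate 2, WT replicate 3, cKO replicate 1 or cKO replicate 2, and with samples scaled to equal totals (adjusted p = 0.135) and by limma-voom (adjusted p = 0.140), with an adjusted p from 0.0121 to 0.140 over all alternatives. Inside the span of Clock, on the same strand and with no shared exon bases, the annotated transcript of uncertain type Gm43658 had 14.0 ± 6.21 normalized counts in the WT samples (SD, n = 3) and 52.4 ± 16.6 in the cKO samples (SD, n = 3), an increase of 1.87 on the log2 scale (limma adjusted p = 0.000713).

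The Per genes encode the repressors that set the pace of the loop. Per2 (chromosome 1, 91415982 to 91459324) changed the most of the list. It had 2644, 2351 and 2463 normalized counts in WT and 1359, 1380 and 1214 in cKO. Every cKO value was far below the lowest WT value. The WT mean was 2486 ± 148 (SD, n = 3) and the cKO mean 1318 ± 90.4 (SD, n = 3). Per2 thus fell by 0.92 on the log2 scale (standard error 0.0583, limma adjusted p = 1.81e-12), a change of −47.0%. Only 0.945% of all genes had a lower log2 fold change. Among the 3703 genes whose mean count was within a factor of 2 of that of Per2, the share was 0.216%.

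Per1 (chromosome 11, 69095217 to 69109960) had 100593, 93291 and 97691 normalized counts in WT and 81355, 80987 and 81853 in cKO. The cKO values lay close together and below every WT value. Per1 fell by 0.26 on the log2 scale (standard error 0.0307, limma adjusted p = 2.23e-07), a change of −16.2%. As its level was so high, this small fold was the largest difference of the list in counts. Per1 took 0.146% of all normalized counts in WT and 0.127% in cKO. Per3 (chromosome 4, 151003652 to 151044665) had 194, 193 and 262 normalized counts in WT and 206, 185 and 196 in cKO. WT sample 3 stood above the other 5 samples. The log2 fold change of −0.13 (95% confidence interval −0.44 to 0.18, limma adjusted p = 0.554) was not called, and it was 0.018 without WT replicate 3.

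The Cry genes encode the cryptochromes, which bind the CLOCK and BMAL1 pair directly, and their transcripts moved in opposite directions. Cry1 (chromosome 10, 85131700 to 85185064) had 950, 920 and 1021 normalized counts in WT and 1223, 1239 and 1257 in cKO. Every cKO value was above every WT value. Cry1 rose by 0.36 on the log2 scale (standard error 0.0641, limma adjusted p = 5.45e-05), a change of 28.7%. Cry2 (chromosome 2, 92403646 to 92434043) had 2785, 2782 and 2835 normalized counts in WT and 2269, 2287 and 2187 in cKO. Its values were tight within each genotype and far apart between them. A noncoding transcript, D930015M05Rik, shares 295 exon bases (4.67% of those of Cry2) on the opposite strand and had 43.6 ± 10.4 normalized counts in WT (SD, n = 3). Cry2 fell by 0.32 on the log2 scale (standard error 0.0454, limma adjusted p = 3.36e-06), a change of −19.7%.

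The balance within each family can be read inside a sample, where no scaling between samples enters. Per kb, Cry1 made up 39.4% ± 1.03 (SD, n = 3) of the 2 cryptochrome transcripts in WT, and in cKO 51.1% ± 0.897 (SD, n = 3). The log2 ratio of Cry1 to Cry2 per kb was −0.63, −0.68 and −0.55 in WT and 0.028, 0.035 and 0.12 in cKO. Per kb of annotated exon, Cry2 was thus the higher transcript in all WT samples and the lower in all cKO samples. An exact permutation test of the ratio (two-sided) gave p = 0.1, the smallest possible. As the ratios did not overlap, that p was fixed and adds nothing to them. Which of the 2 transcripts is higher depends on the annotated exon lengths used, 3340 bases for Cry1 and 6320 for Cry2. With their longest annotated transcripts, 3026 and 3976 bases, Cry2 would stay the higher in every sample. The difference between genotypes in the ratio, 0.68, does not depend on length. Per2 made up 2.40% ± 0.0570 (SD, n = 3) of the Per transcripts per kb in WT and 1.53% ± 0.111 (SD, n = 3) in cKO. Nr1d1 made up 2.74% ± 0.398 (SD, n = 3) of the Nr1d transcripts in WT and 3.90% ± 0.326 (SD, n = 3) in cKO. These shares of Cry1, Per2 and Nr1d1 did not overlap between the genotypes. Nr1d1 itself was not called, and its share rose as Nr1d2, the bulk of that family, fell.

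**Figure D3:**
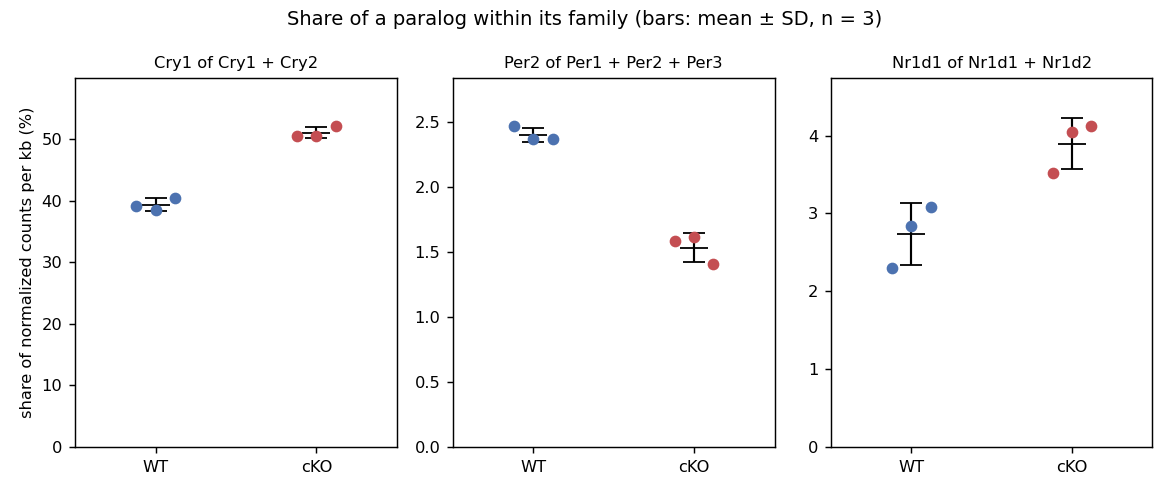
Share of Cry1, Per2 and Nr1d1 in the summed normalized counts per kb of their gene family (y axes in percent, from 0) in 3 WT (blue) and 3 cKO (red) samples, with mean and SD as black bars. Cry1 rises from 39.4% to 51.1%, Per2 drops from 2.40% to 1.53%, and Nr1d1 goes from 2.74% to 3.90%, with no overlap between genotypes. Nr1d1 itself was not called, while Nr1d2 fell.

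The Nr1d genes encode the REV-ERB repressors of the second loop. Nr1d2 (chromosome 14, 18204054 to 18239127) had 12359, 12335 and 11964 normalized counts in WT and 9645, 9120 and 9136 in cKO. All cKO values were below all WT values. Nr1d2 fell by 0.39 on the log2 scale (standard error 0.0338, limma adjusted p = 5.83e-10), a change of −23.9%. Among the 1964 genes with a mean count within a factor of 2, 2.65% had a lower log2 fold change. Nr1d1 (chromosome 11, 98767932 to 98775333) had 166, 205 and 217 normalized counts in WT and 200, 219 and 223 in cKO. The ranges overlapped, and its log2 fold change of 0.14 was not called (95% confidence interval −0.16 to 0.44, limma adjusted p = 0.508). Its exons share 263 bases, 8.55% of their length, with Thra on the opposite strand. Whether strand was used in counting is not given in the sources used here, and Thra itself had 317 ± 43.1 (SD, n = 3) normalized counts in WT.

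Dbp (chromosome 7, 45705088 to 45710203) had 334, 359 and 334 normalized counts in WT and 339, 379 and 300 in cKO. The WT values lay inside the cKO range. The log2 fold change was −0.019 with a 95% confidence interval from −0.25 to 0.22 (limma adjusted p = 0.920). Its sign changed with samples scaled to equal totals. Dbp shares 539 exon bases, 18.0% of its exon length, with Sphk2 on the opposite strand, and Sphk2 was the more abundant, with 1753 ± 65.1 (SD, n = 3) normalized counts in WT. The number of reads from Sphk2 counted for Dbp could not be separated.

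**Figure D4:**
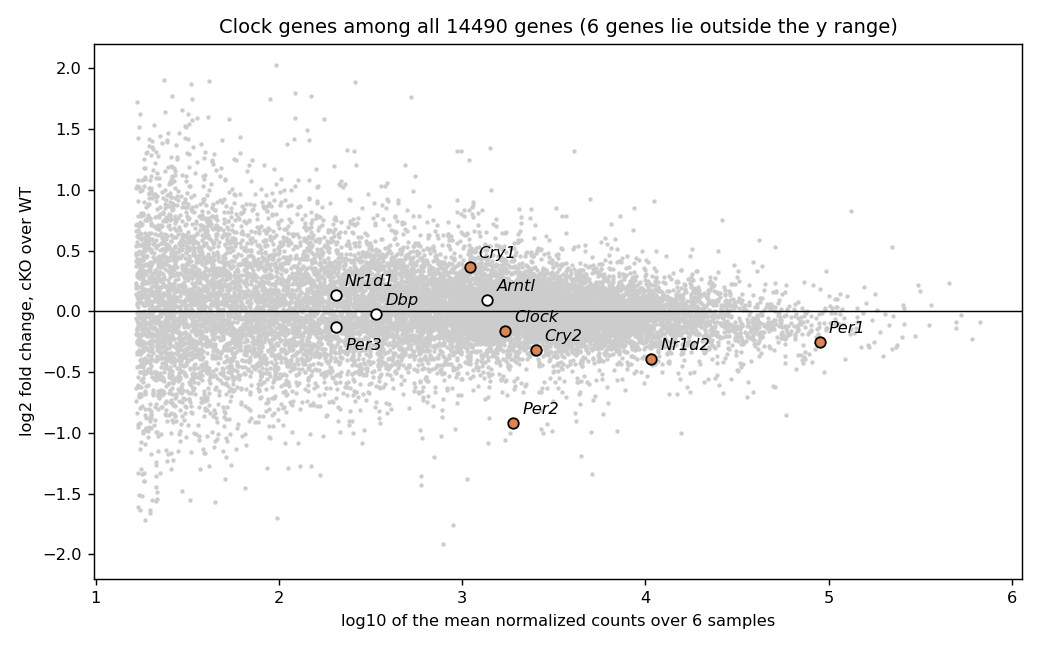
Log2 fold change of cKO over WT (y axis) against log10 of the mean normalized counts (x axis) for all genes (grey, 6 of them outside the y range), with the called clock genes in orange and those not called in white. Per2 at −0.92 lies at the lower edge of the genes of its level, and Cry1 at 0.36 is the only called clock gene above 0.

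Arntl is known to peak at the opposite time of day to several of these genes, and each was also set against it within samples, as a log2 ratio per kb. The ratio of Nr1d2 to Arntl was 3.63, 3.65 and 3.75 in WT and 3.39, 3.10 and 3.08 in cKO. That of Per2 was 1.29, 1.14 and 1.35 in WT and 0.45, 0.26 and 0.053 in cKO. Both were lower in every cKO sample. Ratios to Arntl were likewise without overlap for Per1 and Cry2, which were lower, and for Cry1, which was higher in cKO. The gap was narrow for Cry1, with 0.89 in WT sample 3 and 0.91 in cKO samples 2 and 3. The ratio of Dbp to Arntl averaged −0.63 in WT (SD 0.0890, n = 3) and −0.74 in cKO (SD 0.223, n = 3). That of Nr1d1 averaged −1.49 in WT (SD 0.279, n = 3) and −1.44 in cKO (SD 0.0480, n = 3). These ratios and that of Per3 overlapped between genotypes.

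Within a genotype the clock genes varied little between samples. The SD of the log2 values around the genotype means was lowest for Cry2, at 0.027, and highest for Per3, at 0.19. Over the 6 samples, the deviations of Per2 and Clock from their genotype means had Pearson r = −0.93, the most negative of all pairs, and those of Per3 and Cry1 had r = 0.85, the most positive. For Arntl, r was −0.0036 with Dbp and −0.094 with Nr1d1. These points share their libraries and number 6, and the correlations are given as a description. The 6 log2 values themselves, which include the difference between the genotypes, were also compared among 11055 genes with a mean of at least 100 normalized counts. The genes most like Per2 were Mob2, Anxa2 and Abhd16a, each with r of 0.999, and 956 genes had r above 0.95. Those most like Cry1 were Tmem87a (r = 0.999), Ccdc6 and Paxbp1 (both r = 0.997), and 572 genes had r above 0.95. As the genotype difference enters these r values, they do not show shared variation within a genotype.

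The other genes of the pathway were taken from lists by role. Together the lists named 57 genes, of which 49 had values, and 22 of them were called, 9 higher and 13 lower in cKO, where 36.6% of all genes were called (17.8% higher, 18.8% lower). Their median log2 fold change was −0.0083. Scaling to equal totals gave 20 higher and 13 lower genes.

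Among the loop partners 5 of 9 had values, with 2 higher and 1 lower, beside 17.8% and 18.8% of all genes. Npas2, Arntl2 and Rorb were among those with no row in the values used here. Ciart, the gene of CHRONO, a repressor of the CLOCK and BMAL1 pair, had 3220, 3428 and 3288 normalized counts in WT and 4654, 4780 and 4759 in cKO. It rose in every cKO sample above the WT range, by 0.51 on the log2 scale (standard error 0.0405, limma adjusted p = 1.13e-10). Bhlhe41, the gene of the E-box repressor DEC2, had 892, 833 and 868 normalized counts in WT and 1118, 1154 and 1128 in cKO, and rose by 0.39 (limma adjusted p = 2.85e-05). Its paralog Bhlhe40, the gene of DEC1, was far more abundant, with means of 256352 ± 9895 in WT (SD, n = 3) and 261171 ± 5550 in cKO (SD, n = 3). Bhlhe40 was not called (log2 fold change 0.027, limma adjusted p = 0.556), but it was with samples scaled to equal totals and by limma-voom (adjusted p from 0.00873 to 0.946 over all alternatives). Cipc, the gene of a protein that binds CLOCK and represses it, fell by 0.16 (limma adjusted p = 0.00205). Rora, the ROR activator gene with values, differed by 0.055 (limma adjusted p = 0.404).

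Of the D-box factors, Hlf alone was called, where 36.6% of all genes were. Hlf had 95.3, 94.0 and 47.8 normalized counts in WT and 134, 126 and 107 in cKO. WT sample 3 stood below the others. Hlf rose by 0.69 on the log2 scale (standard error 0.239, limma adjusted p = 0.0258). This call was lost without WT replicate 3, cKO replicate 1 or cKO replicate 2, with an adjusted p from 0.0120 to 0.215 over the alternatives. Tef, which encodes another activator of D-box sites, differed by −0.023 (limma adjusted p = 0.720). Nfil3 had 14282, 14496 and 14211 normalized counts in WT and 14961, 15649 and 14429 in cKO, a log2 difference of 0.066 (limma adjusted p = 0.124). It was called as higher with samples scaled to equal totals (adjusted p = 0.00407), by limma-voom and without cKO replicate 3, with an adjusted p from 0.00365 to 0.466 over all alternatives.

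Regulators of PER and CRY protein had values for 17 of 18 genes, with 3 higher and 6 lower, beside 17.8% and 18.8% of all genes. Usp2, a clock-controlled deubiquitinase, had 1071, 959 and 902 normalized counts in WT and 648, 550 and 583 in cKO. It fell by 0.72 on the log2 scale (standard error 0.0824, limma adjusted p = 1.07e-07). Csnk1e, the gene of casein kinase 1 epsilon, which phosphorylates PER proteins, fell by 0.21 (limma adjusted p = 9.23e-05), while its close relative Csnk1d differed by −0.049 (limma adjusted p = 0.233). Btrc, the gene of a subunit of the ligase that removes PER proteins, fell by 0.20 (limma adjusted p = 0.00852). Siah2, the gene of a ligase that acts on the REV-ERB proteins, rose by 0.27 (limma adjusted p = 2.55e-05), and Timeless rose by 0.25 (limma adjusted p = 0.00566). Usp7 rose by 0.094 (limma adjusted p = 0.0215), a call lost without WT replicate 2 or cKO replicate 1.

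**Figure D5:**
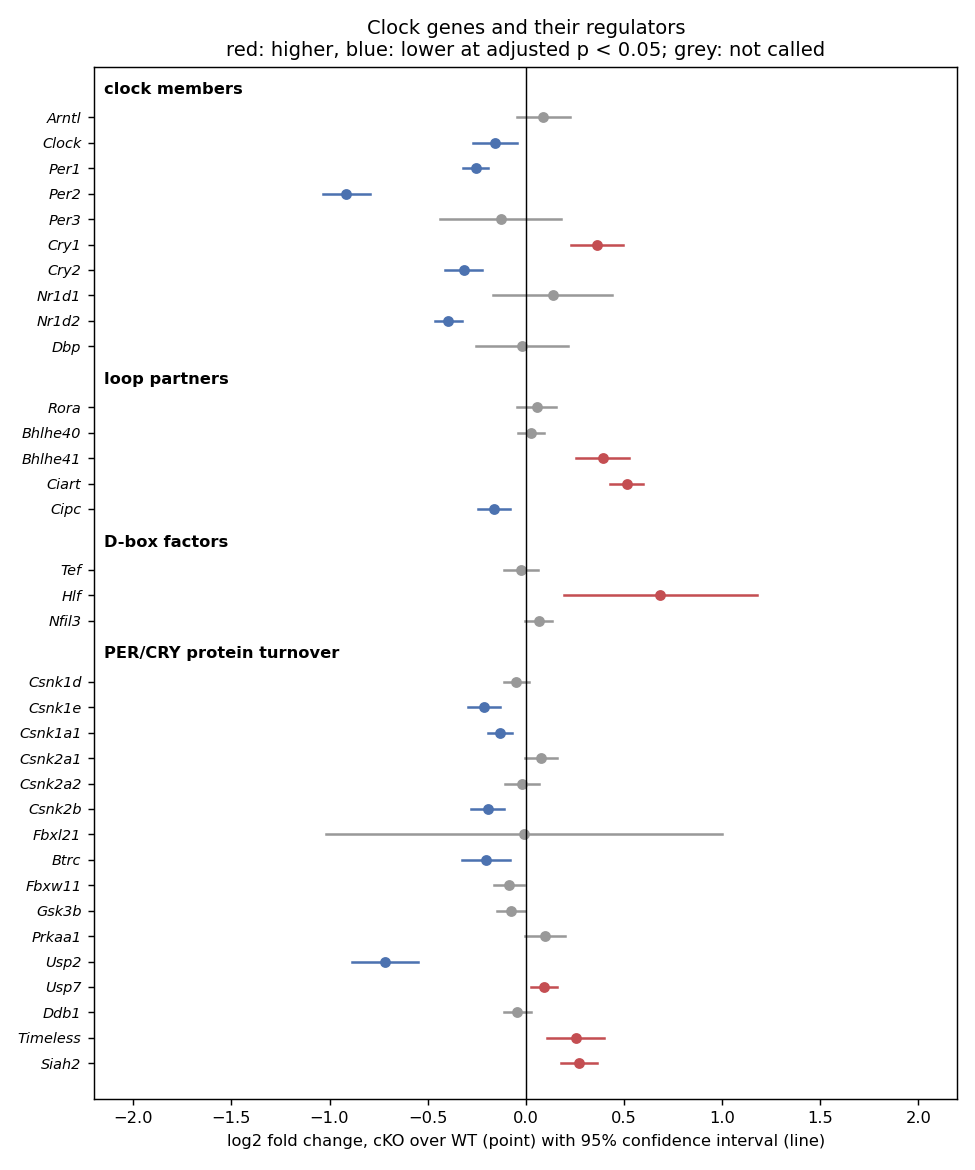
Log2 fold change of cKO over WT (x axis, points) with its 95% confidence interval (lines) for the clock genes, their loop partners, the D-box factors and the regulators of PER and CRY protein reported here, red for higher, blue for lower and grey for not called. Per2 at −0.92 and Usp2 at −0.72 lie farthest to the left, and Hlf at 0.69, with a wide interval, and Ciart at 0.51 farthest to the right.

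Of the 12 chromatin cofactors, 2 were higher and 1 was lower, beside 17.8% and 18.8% of all genes. Ppargc1a, a coactivator of the ROR factors, rose by 0.87 on the log2 scale (limma adjusted p = 0.000543) at low counts, with a WT mean of 92.0 ± 8.73 (SD, n = 3), and Nono, which binds PER proteins, fell by 0.19 on the log2 scale (limma adjusted p = 7.22e-05). Crebbp rose by 0.12 (limma adjusted p = 0.0194), a call lost without WT replicate 2 or cKO replicate 3 and in the fit corrected for GC and length. Among the clock outputs 12 of 15 genes had values, with 1 higher and 5 lower, beside the same shares of all genes. Hsph1, which encodes a heat shock chaperone, had 3622, 3376 and 3324 normalized counts in WT and 6269, 6663 and 6646 in cKO. It rose by 0.92 (standard error 0.0416, limma adjusted p = 1.88e-15). Coq10b fell by 0.29 (limma adjusted p = 1.08e-07), Nr1h3, which encodes the sterol receptor LXRα, by 0.44 (limma adjusted p = 0.00392) and Lonrf3 by 0.51 (limma adjusted p = 0.0278). The call of Lonrf3 was lost by limma-voom and without WT replicate 3, cKO replicate 1 or cKO replicate 3.

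Per1 is also a target of CREB and of the glucocorticoid receptor, and other targets of these were listed to stand beside it. Beside the 17.8% of all genes called higher and 18.8% called lower, 2 of the 12 CREB targets were higher and 7 lower. Dusp1, the gene of a phosphatase, is in both lists and counts in each. Fos, the gene of an AP-1 subunit, rose by 0.82 on the log2 scale (standard error 0.0314, limma adjusted p = 8.01e-17) and Dusp1 by 0.53 (limma adjusted p = 3.06e-13), while Crem, whose products modulate CREB sites, fell by 0.52 (limma adjusted p = 3.36e-11), the orphan nuclear receptor gene Nr4a3 by 0.41 (limma adjusted p = 2.28e-11) and Sik1, the gene of a kinase that restrains CREB coactivators, by 0.34 (limma adjusted p = 2.32e-10). Of the 14 glucocorticoid targets with values, 5 were higher and 4 lower. Il7r, the gene of the interleukin-7 receptor, rose by 0.52 (limma adjusted p = 1.37e-06) and Sgk1 by 0.38 (limma adjusted p = 9.22e-11), whereas Klf9 fell by 0.43 (limma adjusted p = 5.69e-08), Nfkbia by 0.21 (limma adjusted p = 6.55e-06) and Tsc22d3 by 0.20 (limma adjusted p = 5.06e-06). Fkbp5 differed by 0.055 (limma adjusted p = 0.350). Mt1 fell by 0.21 (limma adjusted p = 0.0460, from 0.00452 to 0.313 over the alternatives) and lost its call in 9 of the 14 alternatives, among them leaving out any replicate other than WT replicate 3, equal totals, TMM scaling, limma-voom and the correction for GC and length. The receptor gene Nr3c1 had means of 9272 in WT (SD 197, n = 3) and 9171 in cKO (SD 191, n = 3; limma adjusted p = 0.760).

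The letters GGACT, the most frequent form of the m6A consensus, were counted in the longest annotated transcript of each clock gene. The count was 11 for Per2 (1.89 per kb), 10 for Cry2 (2.52 per kb), 7 for Per1 (1.50 per kb), 3 for Nr1d2 (0.643 per kb) and 8 for Clock (0.821 per kb), which all fell. It was 2 for Cry1 (0.661 per kb), which rose. Among those not called it was 6 for Arntl (1.50 per kb), 5 for Per3 (0.833 per kb), 3 for Nr1d1 (1.10 per kb) and 0 for Dbp. The median over the listed genes was 1.01 per kb, and genes above and below it were found both among those that fell and among those not called. Methylation was not measured in these libraries.

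The cells expressed the NK markers, 11 of 12 listed ones having values, 1 of them higher and 6 lower in cKO. Beside these and the marker counts that follow, 17.8% of all genes were called higher and 18.8% lower. Ncr1 itself averaged 22394 normalized counts in WT (SD 286, n = 3) and 16918 in cKO (SD 230, n = 3). Markers of other cells moved with genotype as well. All 10 B-cell markers had values and 8 were higher in cKO, with a summed level from 1444 to 1455 normalized counts in WT and from 1987 to 2067 in cKO. Of 9 T-cell markers with values 1 was higher and 2 lower, with a summed level from 16000 to 17453 in WT and from 11978 to 12752 in cKO, most of it Cd28. Of 7 myeloid markers with values 3 were higher and 2 lower (14411 to 14985 in WT and 9860 to 10861 in cKO), and the fall in that sum was mostly Ly6c2. The T-cell sum and the fall of the myeloid sum thus rest mostly on 1 gene each. These sums do not give the amount of T or myeloid cells. Of 6 erythroid markers limma called 0 (823 to 888 in WT and 707 to 840 in cKO), and 1 had an unadjusted p under 0.05. No marker with values was at 0 in any sample. The part of these cells in the differences of the clock genes was not tested.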

How the data were processed

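The series holds mRNA-seq of sorted spleen NK cells, 3 samples per genotype, grouped by the genotype given in the labels. The authors aligned reads to GRCm38 with HISAT2 (2.0.5 in the submitters' processing notes), counted them per gene with featureCounts (1.5.0-p3) and divided the counts by DESeq2 size factors. The deposited sample columns hold this signal, called normalized counts. The deposited table also holds the authors' mean, log2 fold change, standard error, statistic, p-value and adjusted p-value, which were not used. Genes outside the table were not analysed here, and a few items in it are not reported here.

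The 14490 genes were fitted as log2(value + 1) in limma 3.58.1 (R 4.3.3) with trended variances. All tests are two-sided, with Benjamini-Hochberg adjustment across the whole table. Requiring a value of 1 or more in 3 or more samples removed 0 genes. The added 1 shrinks fold changes of low genes slightly. Names matched a single gene of GENCODE M21 (GRCm38) for 97.1%, which gave positions, exon lengths and GC content. Same-numbered samples did not deviate together (r from −0.040 to 0.056), so the numbers were not used as pairs. The steps were tested on simulated data.

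The clock genes, the gene lists and the tests were chosen with earlier results of these data known. Named were all 10 clock genes, up to 3 largest called rises and falls of each list and genes preset by name. Some, not all, of the overlapping genes were named, and the 3 genes most like the clock gene with the lowest p in each direction. Btrc, Cd28 and Ly6c2 were named after their values were seen. Alternatives were other scalings, filters and pseudocounts, limma-voom, a replicate block, a GC and length correction, and leaving out each sample.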

Additional observations from a re-analysis of the deposited data

How the results depend on the processing

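The 10 clock genes were refitted with the pseudocount set to 0.1, without the filter, with genes kept at 1 CPM or more in 3 samples, with equal totals, TMM scaling, limma-voom, the replicate block, a correction for GC content and length, and without each replicate in turn. Count models on recovered reads had been planned and were not run. Per1, Per2, Cry1, Cry2 and Nr1d2 kept call and direction in all 14 alternatives, and Arntl and Nr1d1 were called in none. Clock lost its call with equal totals (log2 fold change −0.11, adjusted p = 0.135) and limma-voom (−0.11, adjusted p = 0.140), which also scales to equal totals. Without a replicate each, Clock ranged from −0.20 to −0.13. Dbp turned to 0.031 with equal totals, to 0.032 with limma-voom, to 0.017 without WT replicate 2 and to 0.066 without cKO replicate 3, over a range from −0.10 to 0.066. Per3 turned to 0.018 without WT replicate 3, over a range from −0.20 to 0.018. None of these values of Dbp and Per3 was called. The cause was not tested.

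Equal totals moved the median over all genes to 0.051 on the log2 scale and gave 63.4% higher among called genes, against 48.5%. The other clock genes called as higher numbered 20 in place of 9 with equal totals and with limma-voom, and CREB targets 4 in place of 2 with limma-voom. With the replicate block 5543 genes were called in place of 5307 and the calls of the 10 clock genes did not change. Not every sample deviated most like its own number. The labels do not say that a number marks a shared animal or day. With 3 samples per genotype the spread of a single gene is poorly known, and counting error weighs more on genes of low counts, such as Per3, Nr1d1 and Dbp and the called genes Hlf, Ppargc1a, Lonrf3 and Gm43658.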
